A study of Gallus gallus with 21 samples.

Results

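The comparison of MOXD1 knock-out (KO) with control (CTRL) was made in 13 of the 21 chick neural tube libraries, 6 KO (replicates 2, 4, 6, 7, 11 and 12) and 7 CTRL (replicates 2 to 8). They were chosen by a measured value, the share of counts on genes of the W chromosome, of which each held at least 0.1%; such libraries are called female-like. CTRL replicate 1 and KO replicate 8 also passed that limit, but were left out because they lack genes that are abundant in the others. Of the 12 KO and 9 CTRL libraries in all, 5 KO and 1 CTRL lay under the limit and are called male-like. In KO embryos MOXD1 was targeted by CRISPR/Cas9 in trunk neural crest cells before they commit to a lineage; CTRL embryos are labelled WT. The embryos came from commercial fertilized eggs, and RNA came from the trunk portion of the neural tubes. Constructs were injected at Hamburger-Hamilton stage 10+/11 and electroporated into one side of the neural tube with 5 pulses of 30 ms at 22 V, so a KO library can hold edited and unedited cells. Embryos given CRISPR/Cas9 constructs stood at room temperature for some hours before they went back to 37.5°C; the labels do not say whether this held for CTRL embryos, what construct those received, at which stage the tissue was collected or which share of cells was edited. Nothing beyond the count of embryos in the design says how separate the samples are, and p-values measure the spread between these libraries.

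MOXD1 encodes a monooxygenase-like protein related to dopamine beta-hydroxylase, the copper-dependent enzyme that makes noradrenaline. Neural crest cells arise at the dorsal edge of the neural tube, leave it, and form the sympathetic and sensory ganglia, Schwann cells, pigment cells and the adrenal medulla; MOXD1 is known as a gene of trunk neural crest. In birds the female carries a Z and a W chromosome and the male a pair of Z chromosomes, and the dosage of Z genes is only partly evened out between the sexes. A different number of male embryos in the groups therefore moves W and Z transcripts, which the choice of female-like libraries removes from the comparison.

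W shares chose the libraries and are given as a description. In the 6 KO libraries W transcripts made up 0.180% to 0.239% of counts, and in the 7 CTRL libraries 0.184% to 0.233%. The lowest share inside the limit was 0.180%, in KO replicate 12, and the highest outside it was 0.00455%, in CTRL replicate 9, so no library lay near 0.1%. Z transcripts, which the rule did not use, made up 2.00% to 2.22% of counts in KO and 1.83% to 2.30% in CTRL libraries. Outside the limit, in 5 KO libraries and 1 CTRL library with little W signal, the Z share was 2.97% to 3.24%. The groups compared thus overlapped in Z share, with means of 2.11% ± 0.0921 (SD, n = 6) in KO and 2.12% ± 0.147 (SD, n = 7) in CTRL (exact permutation p = 0.846 over all 1716 splits, 2-sided, adjusted p = 0.846 over 8 measures). Sex is not stated in the labels.

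**Figure D1:**
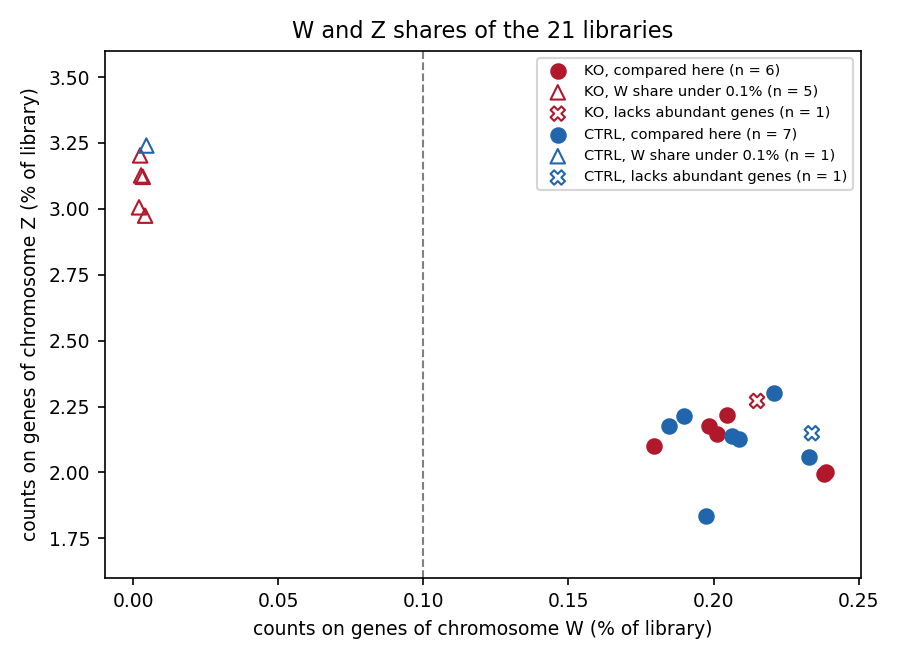
Share of counts on W genes (x axis, % of the library) against the share on Z genes (y axis, %) for the 21 libraries, 1 point each; filled points are the 13 libraries compared, open triangles those under 0.1% W (dashed line) and crosses the 2 that lack abundant genes. The 13 filled points of KO and CTRL lie together at 0.180% to 0.239% W and 1.83% to 2.30% Z, apart from the 6 triangles at 2.97% to 3.24% Z.

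Among these 13 libraries no transcript differed between KO and CTRL neural tubes beyond the threshold. edgeR's quasi-likelihood test covered 13778 genes and called 0 (0%) at the adjusted threshold of 0.05; the lowest adjusted p of any gene was 0.9999. Before adjustment, edgeR placed 527 genes (3.82%) under 0.05, 177 of them higher (1.28%) and 350 lower (2.54%) in KO. With no difference at all, a share of about 0.05 would fall under that limit, so the 527 do not mark out changed genes. DESeq2 was given 20482 genes, called 1 and placed 823 (4.02%) under 0.05 before adjustment. Any gene to which it gave no adjusted p was left out of the call, and the number of such genes is not given here. Without KO replicate 2 or CTRL replicate 7 edgeR's 527 became 802 (5.77%) or 822 (6.02%), with 0 called in either. Libraries held 17650312 to 20880291 counts in KO and 16164404 to 21133788 in CTRL (exact permutation p = 0.566), with 12524 to 12832 genes at 1 CPM or more in KO and 12557 to 13030 in CTRL (p = 0.298; each adjusted p = 0.710 over 8 measures). CPM are counts scaled to a common library size, with TMM factors where levels of single genes are given. The level of MOXD1 itself and of neural crest, neuron and other tissue markers was not analysed here, since no list pairing the IDs with symbols was at hand.

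The measurement was precise enough to bound most changes. Log2 changes had a median standard error of 0.20. In 10920 genes (79.3%) the 95% interval excluded changes of 2-fold or more, up or down, and in 6899 genes (50.1%) those of 1.5-fold or more. Precision followed level. Among the 2076 genes at a mean of 100 CPM or more, 97.0% had an interval inside 2-fold, and 80.0% inside 1.5-fold. Among the 7243 genes at 10 to 100 CPM these shares were 93.2% and 66.6%, and among the 3602 genes at 1 to 10 CPM they were 55.6% and 11.4%. The 857 genes under 1 CPM had a median standard error of 0.44, and 18.6% of them had an interval inside 2-fold. The intervals describe whole tissue, edited and unedited cells together, in which fewer cells of a type and less RNA per cell cannot be told apart.

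Low and abundant transcripts did not enter the list of 527 equally. Genes at 100 CPM or more gave 14 higher and 10 lower (1.16% of the class), genes at 10 to 100 CPM gave 93 higher and 166 lower (3.58%), genes at 1 to 10 CPM 49 higher and 147 lower (5.44%), and genes under 1 CPM 21 higher and 27 lower (5.60%). Lower calls outnumbered higher ones most in the class of 1 to 10 CPM, whose median log2 change was -0.074, against -0.0022 over all genes tested. No direction is drawn from this split, since the share of lower calls ran from 45.3% to 75.9% over the alternative fits, against 66.4% here.

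**Figure D2:**
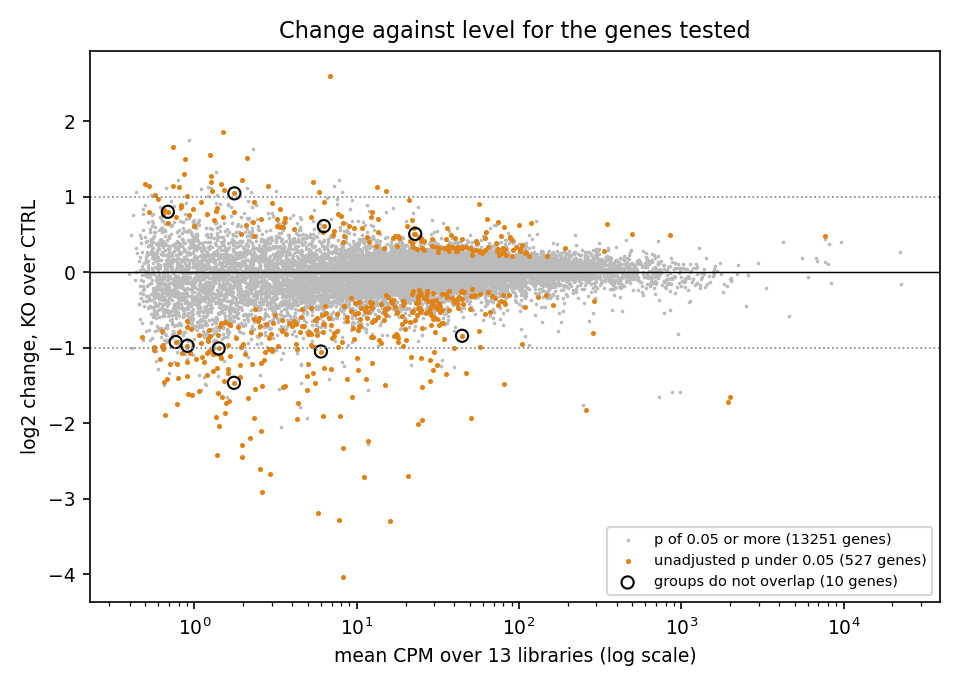
Mean CPM over the 13 libraries (x axis, log scale) against the log2 change of KO over CTRL (y axis) for each of 13778 genes; orange points have an unadjusted p under 0.05, and black rings mark genes whose KO and CTRL libraries do not overlap. The cloud narrows with level, 10 genes carry a ring, and more points lie below -2 (20 genes) than above 2 (1 gene).

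In each direction the 2 genes of lowest p, at a mean level of 1 CPM or more, are named by ID; none passed the threshold, and their values are given as descriptions. Higher in KO was ENSGALG00000045520, an 8-exon gene of 757 bases of exon on chromosome 13 (GRCg6a, plus strand, 11295210 to 11299437). It stood at 10.4, 23.4, 3.89, 17.5, 1.03 and 18.2 CPM in KO replicates 2, 4, 6, 7, 11 and 12, against 1.28, 4.50, 1.21, 1.92, 2.43, 1.46 and 1.48 CPM in CTRL replicates 2 to 8. KO replicates 2, 4, 7 and 12 lay above every control, while KO replicate 6 lay under CTRL replicate 3 and KO replicate 11 was the lowest library of the 13. KO libraries averaged 12.4 ± 8.78 CPM (SD, n = 6), against 2.04 ± 1.16 CPM for CTRL libraries (SD, n = 7). By edgeR the log2 change was 2.60 with SE 0.56 (p = 0.000287, adjusted 0.9999). This is the gene that DESeq2 called, with a log2 change of 2.60 and an adjusted p of 0.0101, so the call rests on the choice of test. Without KO replicate 11, the lowest library, edgeR gave it an adjusted p of 0.124. With each other library left out in turn, edgeR's adjusted p for it was 0.736 to 0.9998.

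The other gene on the higher side was ENSGALG00000037286 of chromosome 7 (minus strand, 22534108 to 22539376). KO replicates 2, 4, 6, 7, 11 and 12 held 1.08, 1.26, 1.31, 1.27, 2.46 and 3.51 CPM, and CTRL replicates 2 to 8 held 0.642, 1.04, 0.575, 0.799, 0.6996, 0.663 and 1.09 CPM. KO replicates 11 and 12 were the highest, and KO replicate 2 lay just under CTRL replicate 8, so the groups overlapped there. By edgeR the log2 change was 1.20 with SE 0.33 (p = 0.00226, adjusted 0.9999), on 316 counts in all.

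Lower in KO was ENSGALG00000001603, an 11-exon gene of chromosome 18 (minus strand, 3478570 to 3492518). It had 35.3, 27.9, 31.7, 38.1, 28.1 and 26.5 CPM in KO replicates 2, 4, 6, 7, 11 and 12, against 77.9, 77.6, 46.4, 40.9, 52.0, 58.9 and 38.4 CPM in CTRL replicates 2 to 8. Every KO library lay below every control, although KO replicate 7 and CTRL replicate 8 were separated by less than 1 CPM. KO libraries averaged 31.3 ± 4.62 CPM (SD, n = 6), against 56.0 ± 16.3 CPM for CTRL libraries (SD, n = 7). By edgeR the log2 change was -0.84 with SE 0.18 (p = 0.000293, adjusted 0.9999).

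ENSGALG00000006775 of chromosome 20 (plus strand, 10367592 to 10377566) came next on the lower side. KO replicates 2, 4, 6, 7, 11 and 12 held 30.1, 24.4, 15.1, 18.6, 19.1 and 23.4 CPM, and CTRL replicates 2 to 8 held 38.9, 51.4, 28.8, 31.4, 36.3, 46.4 and 31.1 CPM. KO replicate 2 was the one KO library above a control, CTRL replicate 4. By edgeR its log2 change was -0.79 with SE 0.18 (p = 0.000514, adjusted 0.9999). No other annotated gene overlaps any of the 4 genes named.

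**Figure D3:**
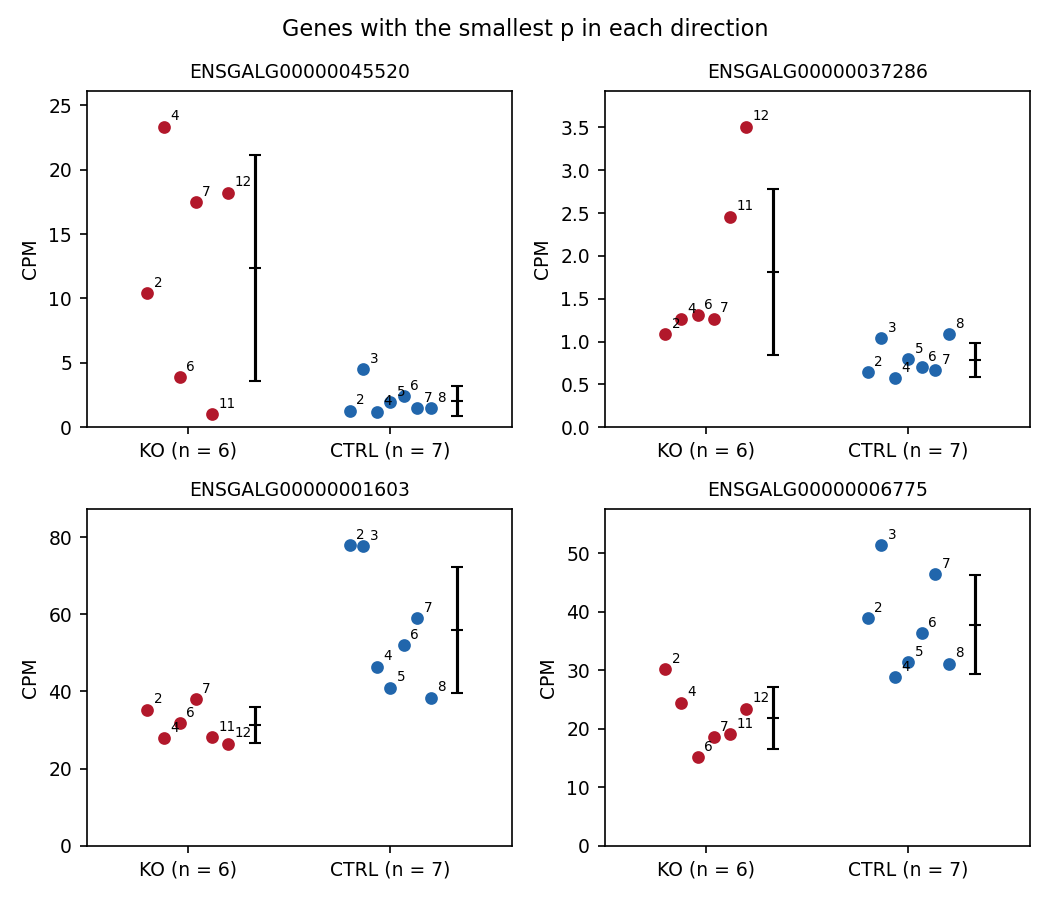
CPM (y axis, from 0) of the 4 named genes in the 6 KO (left) and 7 CTRL (right) libraries, numbered by replicate; black marks give the mean and SD of each group. ENSGALG00000045520 spreads from 1.03 to 23.4 CPM in KO, and ENSGALG00000001603 shows no overlap between the groups.

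The male-like libraries, with 1 control, did not enter the choice of these genes, and their values are given as a description. On a scaling over all 21 libraries, ENSGALG00000001603 stood at 54.7, 49.9, 34.3, 39.8 and 25.9 CPM in the male-like KO replicates 1, 3, 5, 9 and 10, and at 33.8 CPM in the male-like CTRL replicate 9. The male-like control thus lay inside the KO range. ENSGALG00000006775 stood at 17.4, 35.9, 20.2, 15.2 and 23.5 CPM in the same KO libraries and at 15.7 CPM in CTRL replicate 9. For ENSGALG00000037286 the male-like control, at 2.93 CPM, lay above all 5 male-like KO libraries, at 0.522 to 2.06 CPM. ENSGALG00000045520 was high in KO replicates 1 and 5, at 18.01 and 28.9 CPM, and low in KO replicates 3, 9 and 10, at 1.77, 2.07 and 0.374 CPM, with 0.585 CPM in CTRL replicate 9. CTRL replicate 1 and KO replicate 8 are left aside here. Over the other 19 libraries this gene was at 10 CPM or more in 6 of 11 KO and 0 of 8 CTRL libraries. That level was chosen after its values were seen. The count includes the female-like libraries that chose the gene, so it gives no separate support. Outside those, it rests on KO replicates 1 and 5.

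The difference of the KO effect between male-like and female-like libraries was fitted with an interaction term over these 19 libraries. Of 15448 genes tested, edgeR called 0 (0%) at an adjusted p under 0.05, with a smallest adjusted p of 0.851, and 718 (4.65%) at an unadjusted p under 0.05. Only 1 male-like control was present, which the fit takes to vary like the other groups, and the median standard error of the difference was 0.49, against 0.20 for the KO effect in the 13 libraries. With that single control the male-like KO effect has no spread of its own on the control side, so nothing is drawn from this count about a difference between the sexes. No interaction is given for the 4 named genes, since the female-like libraries that form one side of it also chose them.

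In 10 of 13778 genes (0.0726%) the groups did not overlap, with every KO library above every control in 4 (0.029%) and below in 6 (0.0435%). The libraries can be split in 1716 ways, so among 13778 genes some separate by chance, and this can hold for all 10. Separation alone therefore does not mark a gene out. ENSGALG00000001603 had the highest level of the 10; the others shown are given by position and were chosen after their values were seen. Chromosome 4 held one at 21926876 to 21929479 with 22.5 to 39.0 CPM in KO and 14.1 to 22.0 CPM in CTRL, a 1.42-fold difference (edgeR p = 0.004). Chromosome 10 held one at 17067179 to 17103197 with 6.81 to 9.17 CPM in KO and 3.21 to 6.58 CPM in CTRL (1.53-fold). A gene of chromosome 15 at 9054070 to 9080058 had 1.83 to 2.78 CPM in KO and 0.584 to 1.79 CPM in CTRL (2.06-fold). On the lower side, a gene of chromosome 11 at 17751603 to 17760523 had 2.86 to 5.04 CPM in KO and 5.37 to 16.4 CPM in CTRL (0.483-fold). One of chromosome 3, at 66523052 to 66554168, had 0.754 to 1.21 CPM in KO and 1.39 to 4.79 CPM in CTRL (0.363-fold). Each of the 10 had an adjusted p of 0.9999 by edgeR.

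Among the largest fitted changes, most genes were high in a single control library. The fit placed 20 genes at least 4-fold lower and 1 gene (ENSGALG00000045520) at least 4-fold higher in KO. The 20 became 40 without KO replicate 4, 32 without KO replicate 2 and 16 without CTRL replicate 7. In these refits 2, 3 and 3 genes were at least 4-fold higher. In each of the 20 the highest library was a control, CTRL replicate 7 for 11 genes, replicate 2 for 5, replicate 3 for 3 and replicate 6 for 1. The 11 genes high in CTRL replicate 7 stood there at 12.5 to 121 CPM, 7.85 to 51.1 times the next library, with a median ratio of 15.9. One of them, at 17930807 to 18009556 of chromosome 6, had 94.7 CPM in CTRL replicate 7 and at most 1.85 CPM in any other library. With CTRL replicate 7 left out, 9 of the 11 were still tested; their log2 changes ran from -0.93 to 1.37 with a median of 0.047, and edgeR placed 0 of them under 0.05 before adjustment. A gene of chromosome 3 at 105372181 to 105388173 had 181 CPM in CTRL replicate 3 and at most 8.78 CPM elsewhere, and its log2 change was -3.29 with and 0.50 without that library. These genes were chosen after their values were seen. Choosing genes far lower in KO largely fixes that their highest library is a control. Leaving out that library then shrinks the change by construction, so these refits give no separate support.

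A smaller set of the 20 was high in more than one control. Chromosome 22 held one at 2927488 to 2974857 of the minus strand, with 6.93, 8.93, 1.62, 5.18, 5.51 and 3.04 CPM in KO replicates 2, 4, 6, 7, 11 and 12, against 127, 10.4, 62.4, 20.5, 6.81, 7.03 and 2.08 CPM in CTRL replicates 2 to 8. CTRL replicates 2, 4 and 5 were high, CTRL replicate 3 lay just above the KO range, and CTRL replicates 6, 7 and 8 lay inside it. Its log2 change was -2.70, and -1.81 without CTRL replicate 2. Another, at 122624567 to 122638462 of chromosome 2, had 3.14 to 20.2 CPM in KO libraries and 5.10 to 86.5 CPM in CTRL libraries, with CTRL replicates 2, 3 and 4 at 86.5, 78.6 and 42.6 CPM. Its log2 change was -2.01, and -1.65 without CTRL replicate 2.

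Across autosomal genes, differences between libraries of a group were about as large as those between the groups. The root-mean-square log2 difference between a pair of libraries had a median of 0.734 over the 15 pairs within KO, 0.785 over the 21 pairs within CTRL and 0.756 over the 42 pairs of KO with CTRL. The nearest library was a KO library for 3 of 6 KO libraries, and a KO library for 6 of 7 CTRL libraries. For CTRL replicates 2, 5, 6 and 8 it was KO replicate 2, so 1 library supplies most of the count for CTRL. Which library is nearest to these controls without KO replicate 2 was not checked. KO replicate 2 and CTRL replicate 5 were the closest pair, at 0.505. Group membership went with 6.97% of the variance of 13103 autosomal genes (exact permutation p = 0.633 over 1716 splits, 1-sided), a measure added after the data were seen.

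The main axis of variation separated embryos within each group. Component 1 held 27.3% of the variance, and placed KO replicates 4, 6 and 7 at 53.6, 35.1 and 19.8 and KO replicates 2, 11 and 12 at -28.7, -6.47 and -43.9. CTRL replicates 3, 4 and 7 lay at 21.8, 23.3 and 29.9 on it, and CTRL replicates 2, 5, 6 and 8 at -34.9, -16.9, -41.9 and -10.6. Component 2 held 20.2%, with CTRL replicate 3 highest, at 60.7. Neither component differed between KO and CTRL beyond the spread (exact permutation p = 0.621 and 0.553). On component 3, with 9.88% of the variance, the means were -10.9 ± 12.8 (SD, n = 6) in KO and 9.32 ± 20.05 (SD, n = 7) in CTRL (exact permutation p = 0.0519, adjusted p = 0.415 over 8 measures). This difference was -20.2. In refits, components were computed anew and matched by order and sign, so component 3 of a refit may be another axis. With 1 library left out, the values ran from -22.9 to -9.49. They were -9.49 without CTRL replicate 8, -11.6 without CTRL replicate 3 and -12.7 without KO replicate 6. Over genes with a mean log2 CPM above 3 the value was -3.69, but scores over another set of genes are on another scale. These values therefore do not show whether the same difference shrank.

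**Figure D4:**
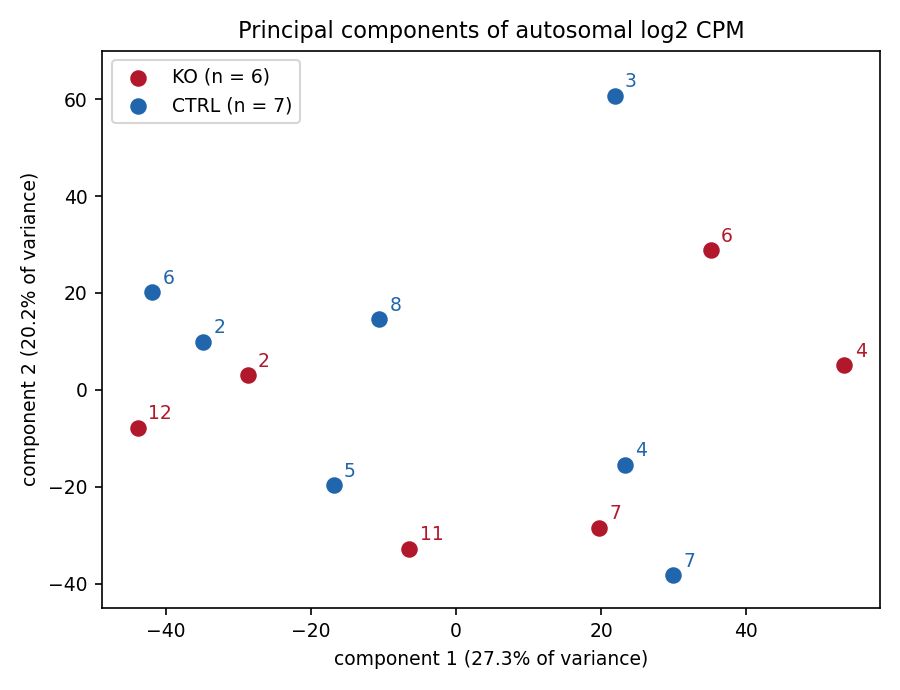
Component 1 (x axis, 27.3% of variance) and component 2 (y axis, 20.2%) of autosomal log2 CPM in the 13 libraries, numbered by replicate. KO and CTRL libraries are spread over the same area, and CTRL replicate 3 lies alone at 60.7 on component 2.

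Components 1 and 2 were set against 3 shares of the library's counts. Genes spanning 300 kb or more, a class rich in neuronal adhesion and channel genes in vertebrates, took 0.334% to 0.658% of counts in KO and 0.387% to 0.631% in CTRL libraries. Over the 13 libraries this share had Pearson's r = -0.69 with component 1 (permutation p = 0.0108, adjusted p = 0.0634 over 6 relations) and Spearman's rho = -0.71 (permutation p = 0.00801, adjusted p = 0.0481). Without KO replicates 4 and 12, the libraries farthest from the median share, r was -0.49. The mitochondrial share had r = 0.61 with component 1 (permutation p = 0.0211, adjusted p = 0.0634) and rho = 0.47 (permutation p = 0.106, adjusted p = 0.159), and r was 0.35 without KO replicates 4 and 6. Those 2 libraries were the farthest from the median share, so leaving them out tends to lower r. The refit therefore does not show what that relation rests on. The share of the 20 top genes had r = 0.34 (permutation p = 0.255, adjusted p = 0.306) and rho = 0.20 (permutation p = 0.512, adjusted p = 0.615) with component 1. The 6 relations are these 3 shares with components 1 and 2, and r and rho were adjusted separately. With component 2 the largest rho was 0.64, for the 20 top genes (permutation p = 0.0221, adjusted p = 0.0664). Its largest r was -0.49, for the long genes (permutation p = 0.0856, adjusted p = 0.160). Over both components, the rho of the long genes with component 1 was the only coefficient with an adjusted p under 0.05. The shares are parts of the same libraries as the components and are not independent of them.

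Mitochondrial transcripts, which encode respiratory chain subunits and the ribosomal and transfer RNAs of the organelle, did not differ between the groups beyond their spread. They made up 7.42%, 11.5%, 14.3%, 7.63%, 8.03% and 8.00% of counts in KO replicates 2, 4, 6, 7, 11 and 12, against 8.03%, 7.10%, 11.0%, 6.68%, 6.74%, 7.73% and 7.87% in CTRL replicates 2 to 8. KO replicates 4 and 6 and CTRL replicate 4 stood apart from the rest, and the other 4 KO libraries lay within the range of the other controls. The means were 9.48% ± 2.80 (SD, n = 6) in KO and 7.88% ± 1.47 (SD, n = 7) in CTRL (exact permutation p = 0.204, adjusted p = 0.710 over 8 measures). Of 37 mitochondrial genes 26 were tested, and 20 of them had a positive log2 change. The median was 0.16, but -0.15 without KO replicates 4 and 6. That refit drops the KO libraries of highest share and keeps CTRL replicate 4, so it cannot show what the direction rests on. No direction is drawn from this median. Before adjustment, 2 mitochondrial genes were higher and 0 lower under 0.05 (7.69%, against 3.82% of all genes tested); they lie at 11196 to 11492 and 11486 to 12863 of the plus strand and overlap by a few bases. Their log2 changes were 0.50 (SE 0.19, edgeR p = 0.0213) and 0.48 (SE 0.23, edgeR p = 0.0496). The gene at 1297 to 2272 of the plus strand had the lowest value of the 26, a log2 change of -0.82 (SE 0.47, edgeR p = 0.0984).

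Z genes were close to the median of all genes among these libraries. For Z the median log2 change over 609 tested genes was 0.021, and 2 were higher and 12 lower under 0.05 before adjustment (2.30%, against 3.82% of all genes tested); the median was -0.0036 with upper-quartile scaling, so its sign depends on the scaling. With all 21 libraries the Z median was 0.16. The 40 tested W genes had a median of -0.13, with 0 higher and 1 lower at that level; W shares chose the libraries, so this is a description. Among autosomes, medians ran from -0.21 on chromosome 31 to 0.020 on chromosome 2. Chromosome 31 had 59 tested genes of 338 listed, with 0 higher and 2 lower. Chromosome 16, home of the chicken's major histocompatibility genes, had a median of -0.13 over 65 tested genes, with 1 higher and 4 lower (7.69%). Without KO replicates 4 and 6 the medians were -0.13 for chromosome 31 and -0.23 for chromosome 16, so their order rests on these libraries. Of the chromosomes with at least 10 tested genes, chromosome 22 had the highest share at an unadjusted p under 0.05. It had 1 higher and 16 lower of 173 genes (9.83%) and a median of -0.038. Chromosome 22 was picked after the values were seen, and no refit is given for it. Reads of near-identical gene copies, as in the histocompatibility families, can be missing or split in these counts.

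**Figure D5:**
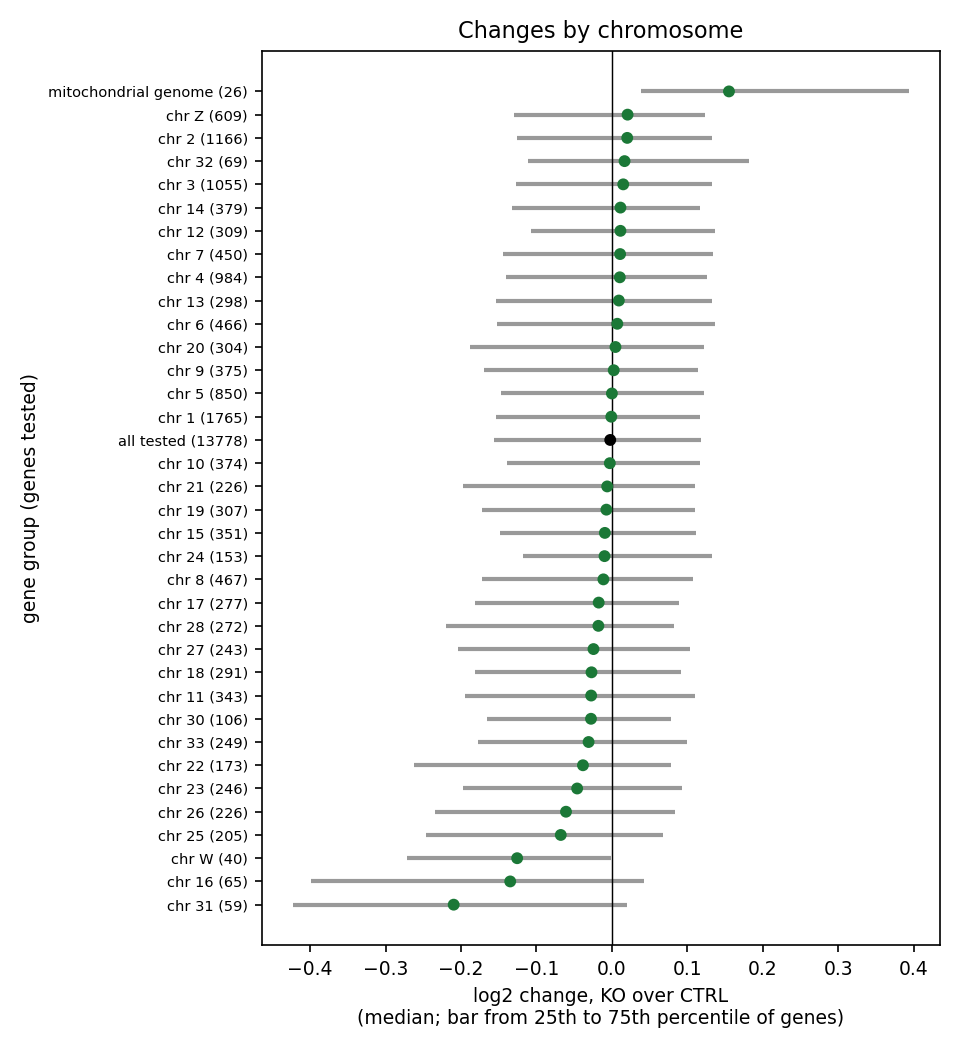
Median log2 change of KO over CTRL (x axis, points) with the range from the 25th to the 75th percentile of genes (bars) for each chromosome with at least 10 tested genes, the mitochondrial genome and all genes tested (black point); numbers in brackets are genes tested. Medians lie between -0.21 (chromosome 31) and 0.16 (mitochondrial genome), and Z stands at 0.021.

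By gene structure, the 439 tested single-exon nuclear genes gave 19 higher and 9 lower under 0.05 before adjustment (6.38%, against 3.82% of all genes tested), with a median log2 change of 0.026. The 130 tested genes spanning 300 kb or more gave 3 higher and 2 lower (3.85%), with a median of 0.073. Their share of counts averaged 0.509% ± 0.129 (SD, n = 6) in KO and 0.488% ± 0.0844 (SD, n = 7) in CTRL. Counts of these classes are descriptions, and their changes were not tested as groups.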

How the data were processed

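Messenger RNA from the trunk neural tube was sequenced in 21 libraries (stranded kit, 50 ng input, 14 PCR cycles), per the labels' protocols. The authors deposited raw counts of fragments per gene; per the file headers they used featureCounts 2.0.1 on the reverse strand with the Ensembl GRCg6a annotation, release 101, with no option set to count multi-mapping reads. Per the submitters' processing notes, STAR and DESeq2 were also used, in versions not given in the sources used here. The table held 0 other columns of values per sample, and 0 of its 24356 gene IDs matched the RefSeq list of another assembly. MOXD1, marker genes and planned gene lists were therefore not analysed here, the tissue label was not checked against markers, and no sequence is printed.

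Of 24356 genes, 20482 had a count in the 13 libraries and 13778 passed filterByExpr of edgeR 4.0.16 (R 4.3.3). The main comparison was edgeR's quasi-likelihood test of KO over CTRL (TMM scaling, no covariate), adjusted by Benjamini-Hochberg and called under 0.05; each SE is the coefficient divided by the root of F. DESeq2 1.42.0 was an alternative. The fit was also run on simulated counts that gave all genes the same spread between libraries. The outcome is not given here, and no result above rests on it. An exact permutation test on 1716 splits (Python 3.11.15) served for the 8 measures per library. Correlations used permutation tests. Named genes are the 2 with the smallest p in each direction at a mean of at least 1 CPM. Groups and replicate numbers came from the titles. Within a group no pair of libraries agreed within sampling noise (lowest chi-square per degree of freedom 30.4). No batch is stated. The libraries, gene classes and tests were chosen with earlier results of these data known.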

Additional observations from a re-analysis of the deposited data

Results flagged for a closer look

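In 28 sets of values (14 measures in each group), 2 had a library far from the others of its group; chance gives about 1 in 20, and the measures are not independent. The mitochondrial share of CTRL replicate 4 was 11.0%, with the next control at 8.03% and the lowest at 6.68%. The level of ENSGALG00000045520 in CTRL replicate 3 was 4.50 CPM, with the next control at 2.43 CPM and the lowest at 1.21 CPM.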

How the results depend on the processing

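The count of genes past the threshold was 0 in 24 of 25 alternatives and 1 with DESeq2. The number at an unadjusted p under 0.05, 527 here (3.82% of 13778 genes), was 823 with DESeq2 (4.02% of 20482). It was 917 with no filter on low counts (4.48% of 20482) and 977 with all 21 libraries (7.08% of 13809). With each of the 13 libraries left out in turn it ran from 369 (2.66%) to 822 (6.02%). The 369 came without KO replicate 11, the 822 without CTRL replicate 7, and 802 (5.77%) without KO replicate 2. The 4 named genes kept their direction in each alternative, which their choice by smallest p largely fixes; the range of their log2 changes was 2.32 to 3.41, 0.42 to 1.47, -0.92 to -0.56 and -0.91 to -0.57, in the order named, with adjusted p from 0.0101 (DESeq2, first gene) to 1.00. Genes with an interval inside 2-fold made up 83.0% under a filter on mean level (1 CPM or more). The difference in Z share, -0.014 percentage points here, was 0.026 over nuclear counts and ran from -0.062 to 0.015 with 1 library left out. Leaving out 1 library gave -0.21 to 1.24 percentage points for the 20 top genes. For component 2 the values were -21.2 to 7.41, with components computed anew in each refit and matched by order and sign. The 7.41 came without CTRL replicate 3, the highest library on component 2, so it may describe another axis. No measure per library passed in any alternative. The cause of these shifts was not tested.

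The replicate numbers were tried as a block. With the numbers of the titles, 647 genes (4.70%) were listed at an unadjusted p under 0.05, and 278 (2.02%) with the numbers of the descriptions. Both had 0 past the threshold and are among the 24 alternatives with 0 genes. Their KO effect rests only on libraries with a partner, 8 by the titles and 6 by the descriptions. The block of the titles left 3 residual degrees of freedom, so these fits could see little. Same-numbered libraries deviated together with correlations of 0.36, 0.21, -0.15 and 0.42 for the titles, and of 0.36, -0.26 and 0.42 for the descriptions. The pairs at 0.36 (replicate 2 of each group) and 0.42 (replicate 7 of each group) are the same in both numberings. Only the pairs at 0.21, -0.15 and -0.26 differ between them. The library it correlated best with bore the same number for 4 of 8 libraries by the titles and 4 of 6 by the descriptions. In each numbering 1 pair had a negative correlation and the others were positive. With so few pairs, these values do not settle whether the numbers mark pairs. The main comparison uses no block, and a pairing remains possible. Precision was lowest for the 857 genes under 1 CPM, of which 18.6% had an interval inside 2-fold; the parts of depth and of spread between libraries in this were not tested.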

Other observations

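Genes with 1 library at 10 CPM or more and at least 4 times above the next library numbered 31 among the 13778 tested, a count made after the data were seen. The high library was a KO library for 2 of them and a control for 29, CTRL replicate 7 for 21 and CTRL replicate 3 for 6. KO replicates 11 and 12 accounted for 1 each, and KO replicates 2, 4, 6 and 7 for 0. Markers of other tissues were not analysed here, so what these transcripts mark was not tested.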
